A study of Mus musculus with 9 samples.

Results

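Cytosolic ribosomal protein genes were followed in mature megakaryocytes (mMKs) of mouse bone marrow after total-body irradiation (IR). A gene was a member when its name on the array was Rpl or Rps plus a digit, or Rplp0, Rplp1, Rplp2 or Rpsa, with names containing -ps and the Rps6k kinases left out. This gave 87 of 37325 genes named on the array, measured by 186 probes. All 87 were among the 29410 genes tested, and 185 of the 186 probes passed the filter on dim signals. The members were 46 genes of the large subunit, 31 of the small subunit, 9 paralogs, and Rps19bp1, which is not a ribosomal protein itself. The 46 and the 31 together are called the 77 core genes.

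The 9 arrays held total RNA of sorted mMKs from male wild-type C57BL/6 mice, with 3 arrays for sham-irradiated Ctrl mice, 3 for 1 day post IR (dpi) and 3 for 3 dpi after 5 Gy of γ-rays. The mMKs were enriched by selection for CD41 and then CD42d. Each time point stood for 3 independent experiments with different donor mice, and the age of these mice was not stated for the arrays. The comparisons asked how the RNA of mMKs differed at either time from that of unirradiated mMKs; both share the 3 Ctrl arrays.

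Ribosomes are made of ribosomal RNA and one copy of most ribosomal proteins, so that the genes of both subunits are usually expressed together and at very high levels. Their messengers start with a run of pyrimidines and are translated under control of mTOR. When ribosome assembly fails, Rpl5 and Rpl11 bind Mdm2 and p53 accumulates, and inherited defects of several members cause Diamond-Blackfan anaemia, a failure of red cell production in bone marrow.

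The label of the cells was checked against 14 megakaryocyte markers. All 14 were well above background on all 9 arrays, and Pf4, a platelet chemokine, was the brightest of them. The same held for all 9 neutrophil, all 9 B cell and all 9 macrophage markers. This check thus does not tell cell types apart. Levels are given as log2 intensity minus the array's 75th percentile, called the scaled level. Pf4 had scaled levels of 6.55, 6.52 and 6.52 on the Ctrl arrays, 6.71, 6.53 and 6.56 at 1 dpi and 6.56, 6.53 and 6.54 at 3 dpi. None of the 14 markers passed the test with a 2-fold change at either time by limma. Without the fold requirement 3 rose and 3 fell at 1 dpi (21.4% each, against 33.4% and 21.9% of all genes). At 3 dpi 5 rose and 1 fell (35.7% and 7.14%, against 17.1% and 14.8%). Under quantile normalization 3 rose and 6 fell at 1 dpi, and 5 rose and 2 fell at 3 dpi. With each array's median as the reference it was 0 and 5 at 1 dpi, and 4 and 1 at 3 dpi. The share of probes well above background was 69.1%, 79.5% and 80.8% in Ctrl, 72.3%, 74.8% and 75.6% at 1 dpi and 81.8%, 81.6% and 81.8% at 3 dpi. Ctrl replicate 1, the lowest of the 9, was also alone on slide 1, while the other 8 arrays were on slide 2.

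At 1 dpi most core ribosomal protein genes were higher than in Ctrl after scaling to the 75th percentile, and most were lower after quantile normalization. With no scaling most were lower too, as most genes were. Relative to all genes the core genes stood at 0.25 both with no scaling and under the 75th percentile. These values are equal by construction, since the 75th percentile moves all genes of an array alike. At 3 dpi the core genes were near their Ctrl levels again by either scaling. The median scaled level of the large subunit genes was 7.1, 7.18 and 7.19 on the Ctrl arrays, 7.62, 7.6 and 7.58 at 1 dpi and 7.17, 7.12 and 7.17 at 3 dpi. For the small subunit genes it was 7.2, 7.22 and 7.2 in Ctrl, 7.77, 7.68 and 7.67 at 1 dpi and 7.31, 7.19 and 7.2 at 3 dpi. All 3 arrays at 1 dpi stood above the other 6 in both subunits, with group means of 7.6 ± 0.02 (SD, n = 3) against 7.15 ± 0.05 in Ctrl for the large subunit and 7.7 ± 0.05 against 7.2 ± 0.01 for the small subunit. Before scaling, the median log2 intensity of the core genes was 16.68, 17.33 and 17.35 in Ctrl, 16.55, 16.6 and 16.53 at 1 dpi and 17.1, 17.21 and 17.22 at 3 dpi, so that without scaling the 1 dpi arrays were the lowest.

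**Figure D1:**
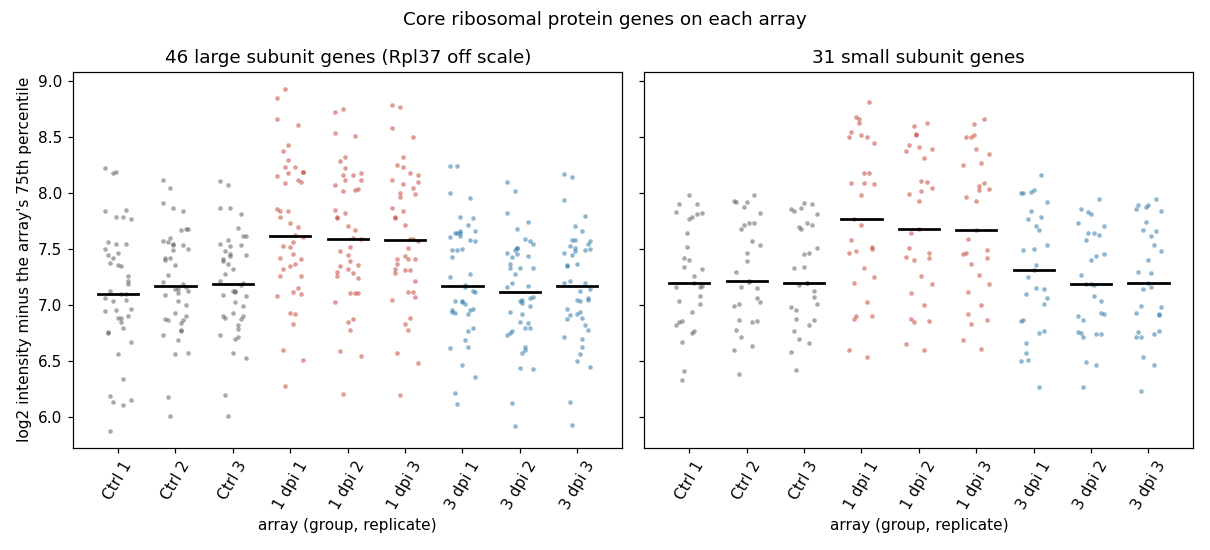
Scaled level (log2 intensity minus the array's 75th percentile) of the large and small subunit genes on each of the 9 arrays, with 1 dot per gene and a bar at the median; Rpl37 lies below the axis. The 1 dpi medians of 7.58 to 7.62 and 7.67 to 7.77 stand above those of Ctrl and 3 dpi, a direction that turns under quantile normalization and, as for most genes, with no scaling.

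In the large subunit, 35 of 46 genes rose at 1 dpi and none fell at an adjusted p under 0.05, where 33.4% of all genes rose and 21.9% fell, but under quantile normalization 1 rose and 21 fell (45.7%), and with no scaling 0 rose and 25 fell (54.3%). Of all genes 23.2% rose and 28% fell under quantile normalization, and 2.87% rose and 54.7% fell with no scaling. With a change of at least 2-fold, 1 of the 46 rose and none fell, against 11.7% and 3.08% of all genes. The median log2 fold change was 0.48, with a range of −0.58 to 1.03. The median of all 29410 genes was itself 0.23 at 1 dpi, 0.12 at 3 dpi and −0.08 between the times, and relative to it the large subunit stood at 0.26 under the 75th percentile and at −0.17 under quantile normalization. In the small subunit, 23 of 31 genes rose and none fell, against 5 (16.1%) and 15 (48.4%) under quantile normalization and 0 and 17 (54.8%) with no scaling. Their median was 0.41, with a range of −0.11 to 1.06, which was 0.18 above all genes under the 75th percentile and −0.18 from them under quantile normalization. Still under the 75th percentile, the large and small subunits stood 0.12 and 0.04 above all genes with no filter on dim signals. With the mean of a gene's kept probes they stood 0.03 and 0.14 above them. The counts of 0 genes came from limma, and at an unadjusted p under 0.05, 61 core genes were higher and 0 lower. By the methods' t-test 60 (77.9%) were higher and 0 lower, against 30% and 22.9% of all genes.

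Without Ctrl replicate 1, which also leaves the comparison within slide 2, 65 core genes (84.4%) rose and 0 fell at 1 dpi under the 75th percentile, against 34.8% and 22.9% of all genes. The large subunit then stood 0.28 above all genes in place of 0.26, and the small subunit 0.35 in place of 0.18. With slide as a random block, 64 (83.1%) rose, against 34.2% of all genes, and the 2 values were 0.27 and 0.28. Leaving out Ctrl replicate 2 or 3 instead gave 0.21 or 0.2 for the large subunit and 0.12 or 0.11 for the small. The 2-fold calls depended on Ctrl replicate 1, since 0 core genes were 2-fold higher without it or with the block. The number of arrays limits the precision, and an exact permutation test of 3 against 3 cannot go below p = 0.1.

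Rpl4, whose protein lines the exit tunnel of the large subunit, had scaled levels of 6.34, 6.84 and 6.82 in Ctrl, 7.63, 7.6 and 7.59 at 1 dpi and 6.92, 6.8 and 6.89 at 3 dpi. Rpl35, which sits at the tunnel's outlet, had 7.13, 7.56 and 7.48 in Ctrl, 8.38, 8.29 and 8.25 at 1 dpi and 7.64, 7.43 and 7.53 at 3 dpi. In both genes all 1 dpi arrays were above all Ctrl arrays, the 3 dpi arrays overlapped Ctrl, and Ctrl replicate 1 was the lowest array. Rpl4 rose by 0.94 (SE 0.13, adjusted p = 0.000721) and Rpl35 by 0.92 (SE 0.12, adjusted p = 0.000514) on the log2 scale at 1 dpi. Their log2 fold changes were 0.38 and 0.24 under quantile normalization.

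Promoters are shown for Rpl4, Rpl35, Rpl11 and Rps12, which rose at 1 dpi under the 75th percentile though Rpl11 fell under quantile normalization, and for the paralogs Rpl39l and Rps27l, which stayed above Ctrl at 3 dpi. Each run covers 70 bases before and 30 after the start of the gene, 5′ to 3′ on the coding strand, from RefSeq on GRCm38.p6. Capitals mark CTTTCC, 6 pyrimidines on the coding strand, and CCGGAAG, the core of an ETS-type motif. The windows are chr9:64173317-64173416 on the plus strand for Rpl4, chr2:39005102-39005201 on the minus strand for Rpl35, chr4:136053364-136053463 on the minus strand for Rpl11, chr10:23787180-23787279 on the minus strand for Rps12, chr16:10170158-10170257 on the plus strand for Rpl39l and chr9:66946016-66946115 on the plus strand for Rps27l.
Rpl4: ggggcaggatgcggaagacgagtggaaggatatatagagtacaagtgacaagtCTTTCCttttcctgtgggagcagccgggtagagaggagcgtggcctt
Rpl35: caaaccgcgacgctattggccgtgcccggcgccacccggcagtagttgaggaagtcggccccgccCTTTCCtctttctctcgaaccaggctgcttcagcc
Rpl11: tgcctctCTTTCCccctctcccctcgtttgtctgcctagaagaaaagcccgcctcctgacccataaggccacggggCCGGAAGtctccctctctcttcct
Rps12: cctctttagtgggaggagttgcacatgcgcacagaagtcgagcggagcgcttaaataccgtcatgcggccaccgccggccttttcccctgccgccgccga
Rpl39l: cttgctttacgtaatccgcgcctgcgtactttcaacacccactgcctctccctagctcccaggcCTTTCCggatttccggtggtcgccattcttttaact
Rps27l: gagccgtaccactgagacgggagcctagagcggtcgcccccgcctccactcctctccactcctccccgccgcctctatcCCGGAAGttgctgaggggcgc

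CTTTCC lay on the coding strand within 50 bases of the start in 18 of 57 core genes with a promoter entry, which is 31.6%, against 4.69% of all 32851 promoters. Among these were 15 of 34 large subunit genes and 3 of 23 small subunit genes. The CTTTCC marked in the Rpl11 run lies more than 50 bases before the start, so that this stretch is outside the count. CCGGAAG lay on either strand in 24 of the 57, which is 42.1%, against 8.86% of all promoters in the same 300 bases, and CTTTCC in either direction there in 50.9% against 26.6%. The median log2 fold change at 1 dpi under the 75th percentile was 0.49 for the 18 core genes with CTTTCC near the start, 0.41 for the 39 without it and 0.46 for the 20 with no entry. A core gene counted with a match in any of its promoter entries, while the shares of all promoters are over single entries. A match describes the letters alone. Among the genes described here, no entry was held for Rpl30, Rplp1, Rps14, Rps20, Rps27a and Rps29.

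Among small subunit genes, Rps24, another gene mutated in Diamond-Blackfan anaemia, had scaled levels of 6.75, 7.22 and 7.2 in Ctrl, 8.18, 8.11 and 8.06 at 1 dpi and 7.36, 7.18 and 7.29 at 3 dpi. Rps12, a protein of the small subunit's head, had 7.42, 7.68 and 7.7 in Ctrl, 8.68, 8.6 and 8.5 at 1 dpi and 7.77, 7.58 and 7.67 at 3 dpi. Rps19, the gene most often mutated in Diamond-Blackfan anaemia, had 7.52, 7.72 and 7.68 in Ctrl, 8.63, 8.53 and 8.52 at 1 dpi and 7.84, 7.64 and 7.74 at 3 dpi. In each, the 1 dpi arrays did not overlap Ctrl and the 3 dpi arrays did. At 1 dpi Rps24 rose by 1.06 (SE 0.13, adjusted p = 0.000391), Rps12 by 0.99 (SE 0.1, adjusted p = 0.000135) and Rps19 by 0.92 (SE 0.08, adjusted p = 8.41e-05). Their log2 fold changes were 0.44, 0.27 and 0.2 under quantile normalization. The other kept probe of Rps12, a dimmer one, was at −0.48 at 1 dpi and −0.5 at 3 dpi, and the authors' table gives −0.43 at 1 dpi for the gene. Rps20 rose by 0.92 as well, with 0.23 under quantile normalization, while its dimmer probes were at 1.08 and −0.2.

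Other small subunit genes did not pass the test at 1 dpi under the 75th percentile and fell under quantile normalization. Rps2, a protein near the messenger's entry, had 6.82, 6.6 and 6.58 in Ctrl, 6.6, 6.65 and 6.69 at 1 dpi and 6.5, 6.76 and 6.72 at 3 dpi, and all 3 groups overlapped. Its log2 fold change at 1 dpi was −0.02 under the 75th percentile and −0.42 (adjusted p = 0.0212) under quantile normalization. Rps15a was at −0.04 and −0.48 (adjusted p = 0.00069) by the same scalings. Rps3a1 had 6.77, 6.64 and 6.66 in Ctrl, 6.54, 6.6 and 6.61 at 1 dpi and 6.27, 6.47 and 6.47 at 3 dpi. Its 1 dpi arrays were just under all Ctrl arrays, with a log2 fold change of −0.11 (adjusted p = 0.25) that was −0.51 (adjusted p = 0.00201) under quantile normalization. Its other kept probes gave up to 1.07 at 1 dpi, and the authors' table gives 0.62 for the gene.

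Across the 77 core genes, the higher the mean scaled level of a gene's probe, the higher its log2 fold change at 1 dpi under the 75th percentile, with Pearson's r of 0.52 and Spearman's rho of 0.55; genes are not independent replicates. With the probe's GC content r was −0.24 and rho −0.21. The core genes sat among the brightest probes, with 58 in the 300 brightest genes and 76 in the brightest 1000. In the 100 brightest genes, the median log2 fold change at 1 dpi was 0.6 for 27 core genes and 0.8 for 72 genes that are not members under the 75th percentile, and −0.1 against 0.06 under quantile normalization. In the rest of the 300 brightest it was 0.36 against 0.58 and −0.22 against −0.02 by the 2 scalings, and in the rest of the 1000 brightest it was 0.18 against 0.31 and −0.24 against −0.09. Within each of these classes the core genes were thus below other genes of like brightness by either scaling, by 0.12 to 0.22, while against all genes their direction depended on the scaling.

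**Figure D2:**
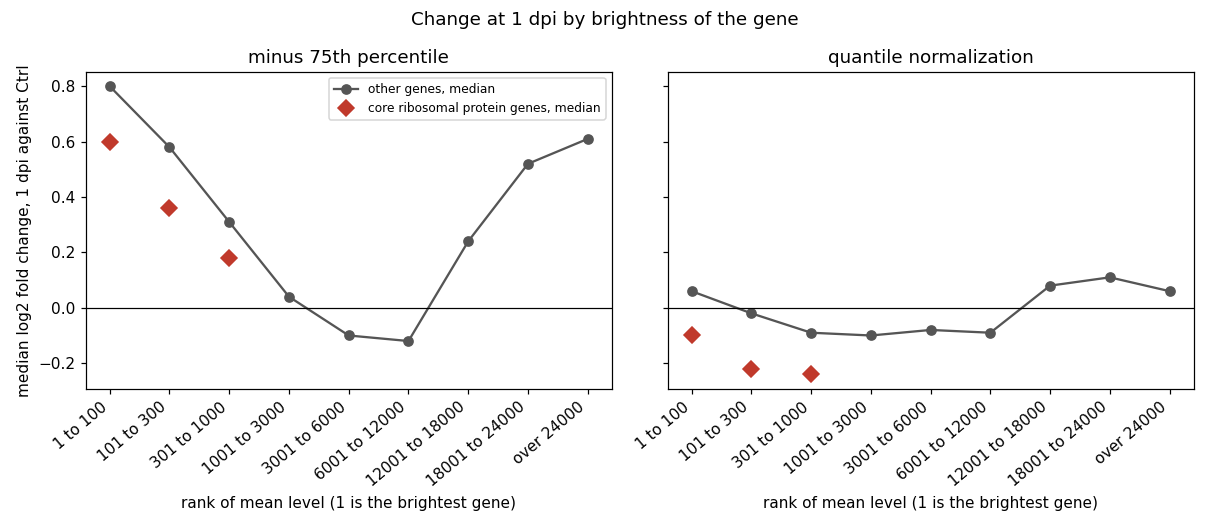
Median log2 fold change at 1 dpi for core genes and other genes by rank of brightness, after scaling to the 75th percentile and after quantile normalization. Core medians lie below those of other genes in the 3 brightest classes under both, at 0.6 against 0.8 and at −0.1 against 0.06 in the brightest.

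Between the median and the 75th percentile, the distribution of intensities on an array was narrower at 1 dpi than in Ctrl. The median of the core genes stood further above the 75th percentile at 1 dpi. The distance from an array's median to its 75th percentile was 3.57, 3.21 and 3.22 in Ctrl, 2.97, 3.02 and 3.02 at 1 dpi and 3.17, 3.19 and 3.18 at 3 dpi, all in log2 units, and its part in the core genes' result was not tested. With each array's median as the reference, the subunits' medians at 1 dpi were 0.16 and 0.08, and 22 core genes (28.6%) rose and 2 (2.6%) fell, against 17.8% and 31.1% of all genes. With no scaling 0 rose and 42 fell by limma at 1 dpi, a share of 54.5% where 54.7% of all genes fell, with 0 higher and 49 lower at an unadjusted p under 0.05, and the median of the core genes was −0.54 where that of all genes was −0.79. Every log2 fold change at 1 dpi was lower by a like amount with no scaling, so that all rises at 1 dpi given here were smaller or turned. In the authors' table, which is quantile normalized, 5 (6.49%) rose and 35 (45.5%) fell, against 18.4% and 21.9% of all its genes.

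**Figure D3:**
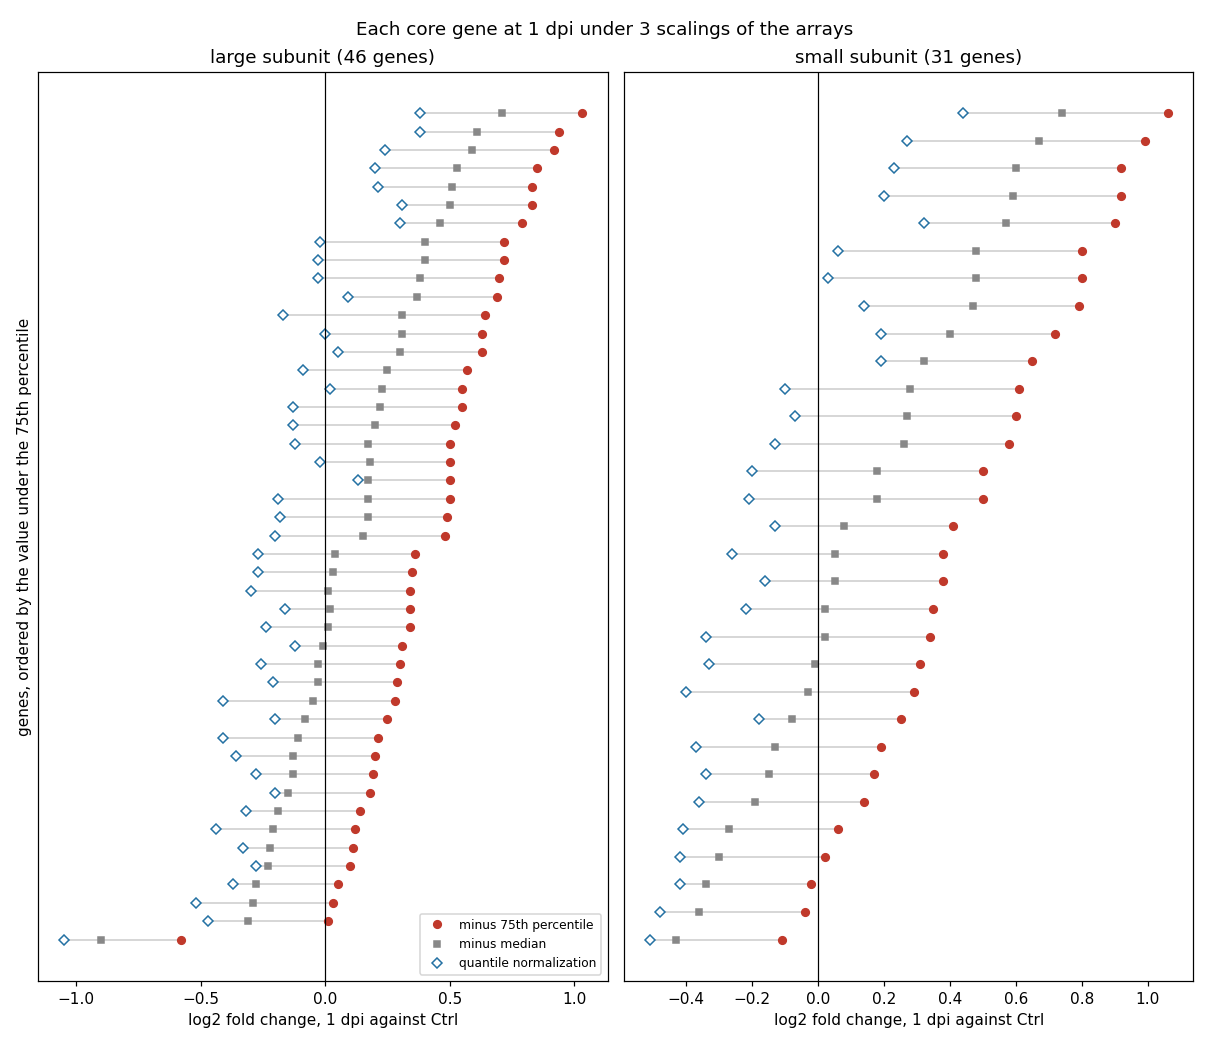
Log2 fold change at 1 dpi of each core gene on the x axis under the 75th percentile, each array's median and quantile normalization, with genes ordered by the former. The 3 settings place 73, 49 and 21 of the 77 genes above 0, so that the direction of most genes turns with the scaling.

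The stalk of the large subunit, which recruits translation factors, is built from Rplp0, Rplp1 and Rplp2. Rplp1 had scaled levels of 6.96, 7.54 and 7.46 in Ctrl, 8.43, 8.32 and 8.32 at 1 dpi and 7.66, 7.51 and 7.58 at 3 dpi. Rplp2 had 7.84, 7.91 and 7.87 in Ctrl, 8.66, 8.54 and 8.58 at 1 dpi and 8, 7.82 and 7.94 at 3 dpi. Rplp0 had 7.1, 7.19 and 7.18 in Ctrl, 7.7, 7.67 and 7.59 at 1 dpi and 7.28, 7.17 and 7.2 at 3 dpi. All 3 genes were above every Ctrl array at 1 dpi and overlapped Ctrl at 3 dpi. Rplp1 rose 2.05-fold at 1 dpi (log2 1.03, SE 0.15, adjusted p = 0.000786) and was at 0.38 under quantile normalization. Rplp2 rose by 0.72 (adjusted p = 0.000119) and Rplp0 by 0.5 (adjusted p = 0.000446), whereas quantile normalization gave −0.02 and −0.12. Rps24 and Rplp1, the 2 core genes past 2-fold, lost that size with Ctrl replicate 1 left out: the log2 fold change of Rps24, 1 dpi against Ctrl, was then 0.91 and the log2 fold change of Rplp1, 1 dpi against Ctrl, 0.85.

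Rpl5 and Rpl11 join the 5S ribosomal RNA and can bind Mdm2. Rpl11 had scaled levels of 7.42, 7.6 and 7.58 in Ctrl, 8.09, 8.02 and 7.97 at 1 dpi and 7.64, 7.49 and 7.58 at 3 dpi. Its 1 dpi arrays were above all Ctrl arrays, and it rose by 0.5 (SE 0.07, adjusted p = 0.00104), but it fell by 0.19 (adjusted p = 0.0273) under quantile normalization. Its other probe, a dim one, was at −0.19. Rpl5 had 6.15, 6.57 and 6.53 in Ctrl, 6.51, 6.55 and 6.48 at 1 dpi and 6.36, 6.43 and 6.45 at 3 dpi. Both irradiated groups overlapped Ctrl, and the log2 fold change of Rpl5 at 1 dpi, 0.1 (SE 0.11, adjusted p = 0.459), was −0.28 under quantile normalization. Whether the 2 genes' changes differ was not tested.

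Several members are known for roles beyond the ribosome. Rpsa, also a laminin receptor, had scaled levels of 7.04, 7.3 and 7.33 in Ctrl, 8.09, 7.99 and 7.97 at 1 dpi and 7.49, 7.27 and 7.3 at 3 dpi. It rose by 0.79 at 1 dpi (SE 0.1, adjusted p = 0.000488), with 0.14 under quantile normalization, and overlapped Ctrl at 3 dpi. Rpl13a, which can silence inflammatory messengers when released from the ribosome, had 6.19, 6.87 and 6.89 in Ctrl, 7.53, 7.48 and 7.41 at 1 dpi and 6.93, 6.77 and 6.91 at 3 dpi. It rose by 0.83 at 1 dpi (SE 0.18, adjusted p = 0.006), with Ctrl replicate 1 far below the other Ctrl arrays and 0.31 under quantile normalization. Rps14, whose loss underlies the anaemia of the 5q- syndrome, had 7.79, 7.73 and 7.73 in Ctrl, 8.09, 8.02 and 8.03 at 1 dpi and 7.71, 7.64 and 7.62 at 3 dpi. Its 1 dpi arrays were above and its 3 dpi arrays below all Ctrl arrays, and it rose by 0.29 at 1 dpi (SE 0.06, adjusted p = 0.00331), against −0.4 under quantile normalization. Rps27a, made as a fusion with ubiquitin, rose by 0.61 and was at −0.1 under quantile normalization. Rps6, the target of the S6 kinases, and Rpl22, which is needed for T cell development, were at 0.17 (adjusted p = 0.111) and 0.18 (adjusted p = 0.0822), against −0.34 and −0.2 under quantile normalization.

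Rpl37 was the core gene with the lowest change. It was measured by a dim probe, ranked 23451 of the genes, with −4.47, −3.74 and −4.4 in Ctrl, −4.45, −5.04 and −4.86 at 1 dpi and −4.89, −4.37 and −4.31 at 3 dpi. All groups overlapped by this scaling, and the log2 fold change at 1 dpi was −0.58 (SE 0.26, adjusted p = 0.0866). Under quantile normalization this probe fell past 2-fold at 1 dpi (log2 −1.05, adjusted p = 0.00693). It then had 5.67, 5.91 and 5.27 in Ctrl, above 4.88, 4.33 and 4.5 at 1 dpi. The probe of the paralog Rpl37rt, ranked 38, had scaled levels of 7.75, 7.79 and 7.8 in Ctrl. Whether the Rpl37 probe reads the main messenger of the gene was not tested.

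At 3 dpi neither subunit stood far from Ctrl, and the few core genes that passed the test were lower. In the large subunit 0 of 46 rose and 1 fell, where 17.1% of all genes rose and 14.8% fell, and in the small subunit 0 of 31 rose and 2 fell. None changed 2-fold, against 7.04% of all genes higher and 1.79% lower. The median log2 fold change was −0.01 for the large and −0.03 for the small subunit, with ranges of −0.32 to 0.26 and −0.29 to 0.23, and relative to all genes it was −0.13 and −0.14. By limma at an unadjusted p under 0.05, 0 core genes were higher and 7 lower. By the methods' t-test 0 were higher and 10 (13%) lower, against 18.8% and 17% of all genes. Under quantile normalization 0 rose and 7 (9.09%) fell, against 15.3% and 18.5% of all genes, with −0.06 and −0.08 relative to all genes. Without Ctrl replicate 1, within slide 2, the relative values were −0.03 and −0.04 with 4 core genes (5.19%) lower, against 16.2% of all genes, and with slide as a block −0.06 and −0.08.

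The 3 core genes that fell at 3 dpi were Rpl30, Rps7 and Rps3a1. Rpl30 had scaled levels of 6.8, 6.78 and 6.79 in Ctrl, 6.92, 6.88 and 6.89 at 1 dpi and 6.63, 6.63 and 6.63 at 3 dpi. Rps7, which can bind Mdm2, had 6.86, 6.87 and 6.88 in Ctrl, 6.88, 6.88 and 6.92 at 1 dpi and 6.57, 6.72 and 6.72 at 3 dpi. The 3 dpi arrays lay below all Ctrl arrays in these genes and in Rps3a1. Log2 fold changes at 3 dpi were −0.16 for Rpl30 (adjusted p = 0.0418), −0.2 for Rps7 (adjusted p = 0.0378) and −0.29 for Rps3a1 (adjusted p = 0.0214). With each array's median as the reference, or with replicate as a block, 0 core genes passed the test. With 1 array left out, 1 to 4 core genes fell. The other kept probes of Rps3a1 ranged up to 0.24 at 3 dpi.

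Between 1 and 3 dpi most core genes fell under the 75th percentile, while under quantile normalization or, like most genes, with no scaling most had positive log2 fold changes. Of the large subunit 40 of 46 fell and 0 rose, and of the small subunit 26 of 31 fell and 0 rose, where 23.3% of all genes fell and 21% rose, but under quantile normalization 18 core genes (23.4%) rose and 2 (2.6%) fell, and with no scaling 52 (67.5%) rose. Of all genes 24.9% rose and 20.2% fell under quantile normalization and 67% rose with no scaling, so that the core genes' rises there were near the share of all genes. None changed 2-fold, against 4.16% of all genes higher and 4.48% lower. The medians were −0.45 and −0.51, or −0.37 and −0.43 relative to all genes, and 0.07 and 0.09 relative to all genes under quantile normalization. The largest falls were those of Rps12 (log2 −0.92, adjusted p = 0.000299), Rps24 (−0.84, adjusted p = 0.00169) and Rps19 (−0.82, adjusted p = 0.000231) under the 75th percentile, and Rps24 was at −0.25 (adjusted p = 0.13) under quantile normalization. By limma at an unadjusted p under 0.05, 0 core genes were higher and 71 lower. By the methods' t-test 0 were higher and 74 (96.1%) lower, against 25.2% and 31.6% of all genes. These 6 arrays share slide 2.

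Probes of one gene often gave different changes. Of the 77 core genes, 58 had over 1 probe kept, and in 29 of these the probes' log2 fold changes at 1 dpi spanned more than 0.5. In 10 they spanned more than 1, and in 8 genes probes passed the test in both directions, among them Rps24, Rps29, Rpl13 and Rps15a. Over all 173 kept core probes, 104 (60.1%) rose and 12 (6.94%) fell at 1 dpi under the 75th percentile, with a median of 0.33, where of all 44300 kept probes 33.5% rose and 21.8% fell, with a median of 0.2. Repeated spots of a probe on an array had a median SD of 0.021 to 0.031 in log2 units. By the array's annotation, 7 member probes lie on another chromosome than their gene.

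Rps24, whose messenger is spliced in alternative ways near its 3′ end, had 4 probes, numbered here along the gene by their mm9 positions. They are shown because probes of this gene moved in opposite directions. Probe 1 spans chr14:25311190-25312666 and probe 2 chr14:25312695-25315015, each over more than its 60 bases, probe 3 lies at chr14:25314669-25314728, and probe 4, the one used for the gene, at chr14:25315021-25315080. The first 30 bases of each are given 5′ to 3′ as deposited, with no part in capitals.
Rps24 probe 1: tggccattatgagaagaaaaagacctcccg
Rps24 probe 2: aatgttggtgctggcaaaaagtgagtggag
Rps24 probe 3: caggtatagttcaagctattccgtagatca
Rps24 probe 4: ttgatgttttgctgtgatgtgcagatttct

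Probe 2 had scaled levels of 6.2, 6.26 and 6.3 in Ctrl, 4.56, 4.48 and 4.46 at 1 dpi and 4.37, 4.24 and 4.25 at 3 dpi. Probe 3 had −0.03, 0 and 0.01 in Ctrl, −1.25, −1.27 and −1.21 at 1 dpi and −1.07, −0.94 and −1.02 at 3 dpi. Both were below Ctrl on all 6 arrays after IR, with log2 fold changes of −1.75 (3.37-fold lower) and −1.24 at 1 dpi and of −1.96 (3.89-fold lower) and −1 at 3 dpi. The adjusted p of probe 2 was 1.62e-06 and 6.92e-07 at these times. Probe 1 had 4, 5.1 and 5.16 in Ctrl, 5.69, 5.79 and 5.78 at 1 dpi and 5.28, 5 and 4.99 at 3 dpi, with log2 fold changes of 1 and 0.33. It was thus higher than Ctrl at 1 dpi, like probe 4 with its 2.09-fold rise, and overlapped Ctrl at 3 dpi. Without Ctrl replicate 1, an alternative chosen after seeing the data, probe 1 was at 0.62 and −0.04 and probe 4 at 0.91 and 0.07, with −1.78 and −1.99 for probe 2. Which transcripts of Rps24 each probe reads was not tested.

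**Figure D4:**
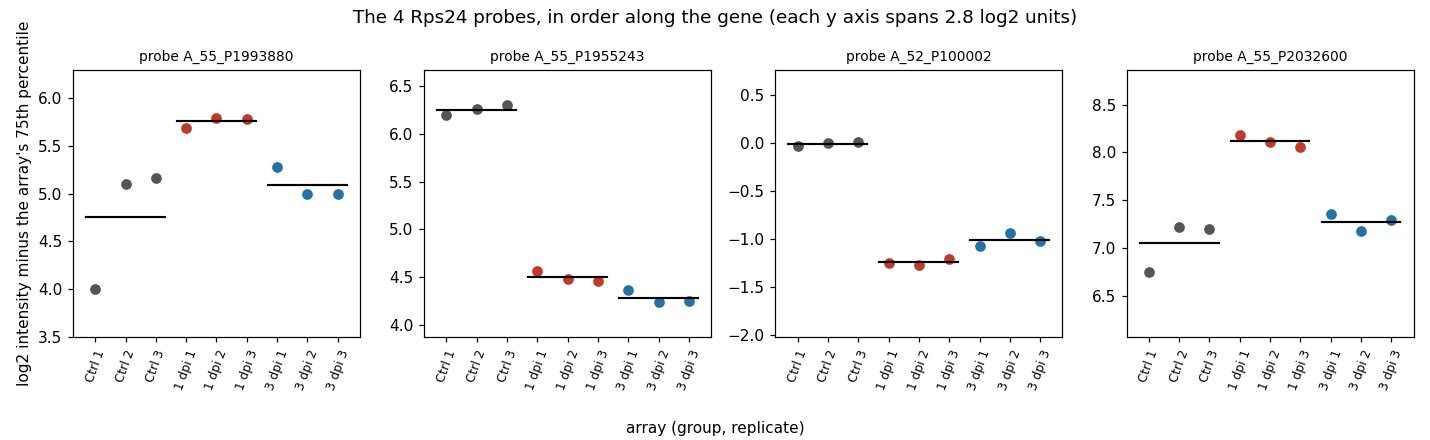
Scaled level of the 4 Rps24 probes on the 9 arrays, 1 panel per probe with axes of equal span and dots for arrays. At 1 dpi a pair of probes stands above Ctrl by 1.06 and 1, or 0.91 and 0.62 without Ctrl replicate 1, and the other pair below it, at −1.75 and −1.24.

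Rps2 has a dim probe at chr17:24858999-24859058 on mm9 with −6.64, −6.27 and −5.6 in Ctrl, −1.84, −2.56 and −2.12 at 1 dpi and −6.16, −5.8 and −5.94 at 3 dpi. It was well above background on 1 of 3 Ctrl arrays and on 3 of 3 at 1 dpi, so that the size of its change is not exact; the bright Rps2 probe gave −0.02. Of the 77 core genes in the authors' table, 31 lie closest to the brightest probe and 46 to another, with 75 of the 77 within 0.01 of their probe by root mean square. The table's log2 fold change at 1 dpi is thus −1.98 for Rps24.

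Paralogs of ribosomal protein genes replace a core protein in some tissues, and 9 of them were members. At 1 dpi 6 of 9 rose (66.7% against 33.4% of all genes), 2 of them past 2-fold. At 3 dpi 4 rose (44.4% against 17.1%) and 1 fell (11.1% against 14.8%), with 1 of the rises past 2-fold. Of all genes 11.7% rose past 2-fold at 1 dpi and 7.04% at 3 dpi. In the 8 paralogs other than Rpl37rt, quantile normalization gave 3 rises and 1 fall at 1 dpi, where 23.2% of all genes rose and 28% fell. Rpl39l, the paralog of Rpl39 known from testis, had scaled levels of −3.48, −3.75 and −3.65 in Ctrl, −1.83, −2.1 and −1.83 at 1 dpi and −1.07, −1.13 and −1.2 at 3 dpi. All irradiated arrays were above Ctrl and those at 3 dpi above those at 1 dpi. Rpl39l rose 3.26-fold at 1 dpi (log2 1.71, SE 0.1, adjusted p = 1.24e-05) and 5.63-fold at 3 dpi (log2 2.49, SE 0.1, adjusted p = 1.75e-06), with log2 values of 1.44 and 2.35 under quantile normalization and 0.69 and 2.53 with no scaling.

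Rps27l, a paralog of Rps27 and a target gene of p53, had 4.99, 5.13 and 5.13 in Ctrl, 6.03, 5.98 and 6.01 at 1 dpi and 5.69, 5.68 and 5.65 at 3 dpi. The 3 groups did not overlap. Its log2 fold change was 0.92 (SE 0.06, adjusted p = 1.95e-05) at the first time and 0.58 (SE 0.06, adjusted p = 0.000229) at the later one, both past the test, with 0.6 and 0.51 under quantile normalization and −0.09 and 0.63 with no scaling. Its other probe gave 0.91 and 0.65. Rps27 itself rose by 0.31 at 1 dpi, against −0.33 under quantile normalization, and was at −0.15 at 3 dpi.

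Rps4l, a paralog of the X-linked Rps4x, had 1.91, 1.73 and 1.78 in Ctrl, 2.38, 2.29 and 2.34 at 1 dpi and 2.55, 2.44 and 2.41 at 3 dpi, above Ctrl on all irradiated arrays. It rose by 0.53 (adjusted p = 0.000631) and 0.66 (adjusted p = 0.000305), with 0.58 and 0.65 under quantile normalization but −0.48 at 1 dpi with no scaling. Rpl10l, a retrogene of Rpl10 active in male germ cells, had −5.64, −5.62 and −5.61 in Ctrl, −4.25, −4.37 and −4.95 at 1 dpi and −5.21, −5.95 and −5.62 at 3 dpi. These are signals near the bottom of the array, highest at 1 dpi, where Rpl10l rose 2.15-fold (log2 1.11, SE 0.23, adjusted p = 0.00452), a call lost under quantile normalization (log2 0.58, adjusted p = 0.0986). Rpl36al had 4.88, 5.65 and 5.65 in Ctrl and 5.95, 5.93 and 5.91 at 1 dpi, and rose by 0.54 (adjusted p = 0.0471), a call lost under quantile normalization (0.22, adjusted p = 0.41). Without Ctrl replicate 1 the log2 fold change of Rpl36al, 1 dpi against Ctrl, was 0.28, and its other probe gave −0.08. Rpl37rt rose by 0.71 at 1 dpi, against 0.01 under quantile normalization. At 3 dpi Rpl7l1 was 0.33 higher (adjusted p = 0.0202) and Rpl3l, the striated muscle paralog of Rpl3, was at −0.51 (adjusted p = 0.0143). Rpl22l1 was at 0.05 and −0.11 and passed at neither time, though under quantile normalization it fell at both, to −0.27 (adjusted p = 0.006) and −0.24 (adjusted p = 0.0153).

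**Figure D5:**
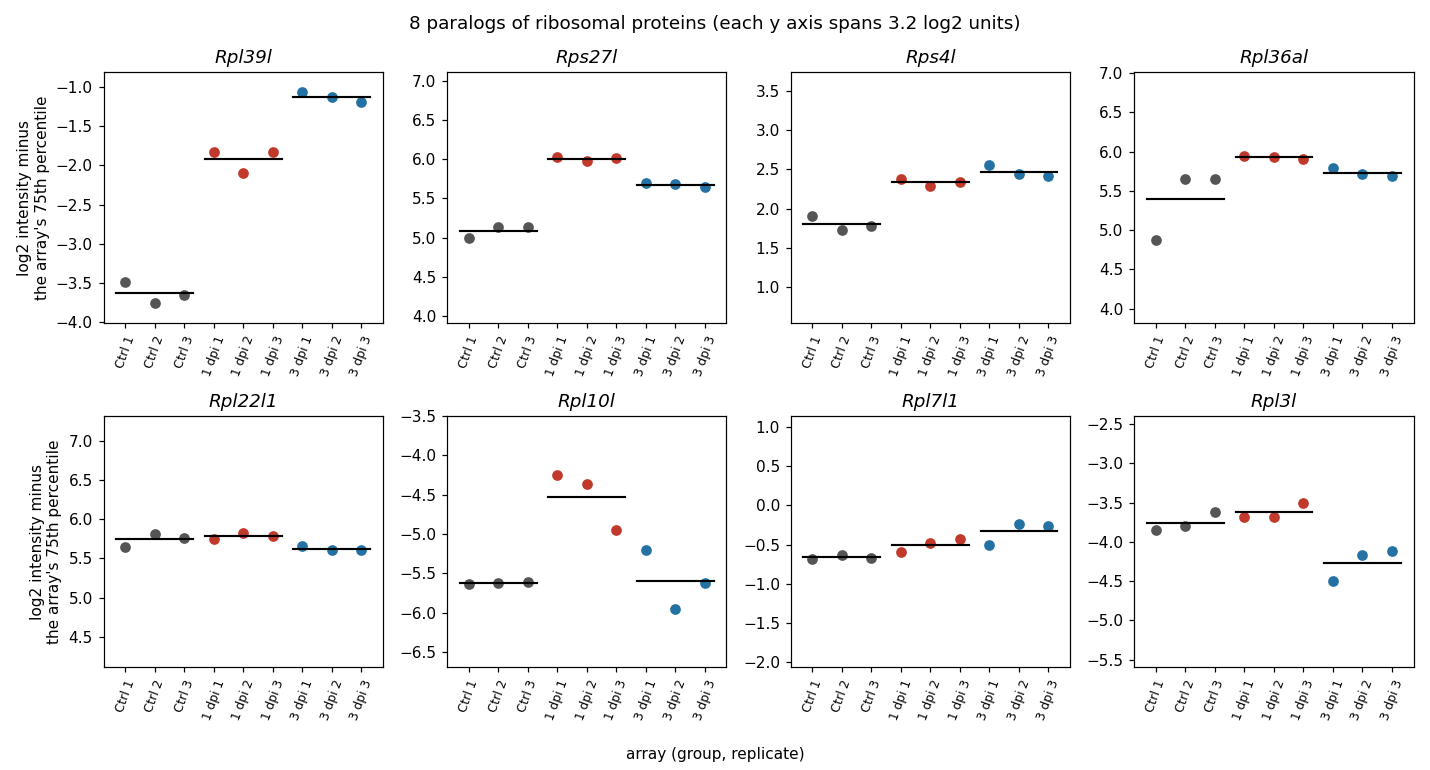
Scaled level of 8 paralogs on the 9 arrays, 1 panel per gene with axes of equal span and a dot per array. Rpl39l and Rps27l are above Ctrl on all irradiated arrays, by 1.71 and 0.92 at 1 dpi and 2.49 and 0.58 at 3 dpi, though with no scaling Rps27l is at −0.09 at 1 dpi.

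Rps19bp1, a nucleolar protein that binds Rps19, had 2.6, 2.3 and 2.33 in Ctrl, 2.25, 2.18 and 2.23 at 1 dpi and 2.64, 2.6 and 2.5 at 3 dpi. It did not pass at 1 dpi (log2 −0.19, adjusted p = 0.103) or 3 dpi (0.17), and was 0.36 higher at 3 dpi than at 1 dpi (adjusted p = 0.0133). Fau and Rack1 are among the ribosomal proteins that the naming rule leaves out. At 1 dpi Fau rose by 0.83 and Rack1 by 0.72 under the 75th percentile, while under quantile normalization neither passed and both were at 0.07. Another measured gene of this kind rose by 0.57 under the 75th percentile. Under quantile normalization 0 of the 3 passed and 2 were above 0. At 3 dpi Fau and Rack1 were at 0.02 and 0.07.

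Ribosomal proteins meet ribosomal RNA in the nucleolus with the help of biogenesis factors. Of 45 such genes 15 (33.3%) rose and 8 (17.8%) fell at 1 dpi, where 33.4% and 21.9% of all genes did, and 11 (24.4%) rose at 3 dpi, against 17.1% of all. These calls depended on the scaling, as 15 rose and 11 fell at 1 dpi and 9 rose and 4 fell at 3 dpi under quantile normalization, while with the array median as reference 2 rose and 16 fell at 1 dpi and the 11 rises at 3 dpi were lost. Their median of 0.1 at 1 dpi was 0.07 under quantile normalization and −0.23 with the array median as reference. Ubtf, the factor that opens ribosomal RNA genes to polymerase I, had 6.17, 6.43 and 6.48 in Ctrl, 7.81, 7.78 and 7.75 at 1 dpi and 6.66, 6.61 and 6.64 at 3 dpi. It stood above Ctrl on all irradiated arrays and rose by 1.42 at 1 dpi (adjusted p = 1.36e-05). Rrn3, an initiation factor of polymerase I, rose by 0.7, and Gnl3 and Nmd3, which act in large subunit maturation and export, were both at −0.61. Of 36 translation factors 11 (30.6%) rose and 10 (27.8%) fell at 1 dpi, against 33.4% and 21.9% of all genes, but 1 rose and 19 fell under quantile normalization, where 23.2% and 28% of all genes did, and the median of 0.05 became −0.26. Eef1a1, which brings transfer RNA to the ribosome, rose by 1 (adjusted p = 0.00302) and Eif4g2 fell by 0.72.

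Of 23 genes that control translation, 4 (17.4%) rose and 10 (43.5%) fell at 1 dpi, against 33.4% and 21.9% of all genes, and 1 (4.35%) rose and 7 (30.4%) fell at 3 dpi, against 17.1% and 14.8%, with medians of −0.19 and −0.17 that were −0.23 and −0.19 under quantile normalization. Sesn2, a p53 target that restrains mTOR, had 0.71, 0.71 and 0.78 in Ctrl, 2.36, 2.29 and 2.26 at 1 dpi and 1.42, 1.19 and 1.17 at 3 dpi. Deptor, an inhibitor within the mTOR complexes, had 0.19, 0.13 and 0.14 in Ctrl, −1.37, −1.23 and −1.17 at 1 dpi and −0.48, −0.37 and −0.37 at 3 dpi. Neither gene's irradiated arrays overlapped Ctrl, with log2 fold changes at 1 dpi of 1.57 for Sesn2 and −1.41 for Deptor. Ppp1r15a, which restores translation after stress, rose by 0.88 at 1 dpi and was at −0.17 at 3 dpi.

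The list of genes tied to ribosomal proteins through p53 held 5. Cdkn1a, which halts the cell cycle, had 1.35, 1.08 and 1.07 in Ctrl, 5.04, 5 and 5 at 1 dpi and 3.83, 3.57 and 3.54 at 3 dpi. Mdm2, the ligase of p53 that Rpl5 and Rpl11 bind, had 4.59, 4.46 and 4.44 in Ctrl, 6.14, 6.19 and 6.11 at 1 dpi and 5.13, 5.06 and 5.03 at 3 dpi. Neither overlapped between groups, and Cdkn1a rose by 3.85 and 2.48 and Mdm2 by 1.65 and 0.58 at 1 and 3 dpi. Of the 5 genes 3 rose at 1 dpi, which is 60% against 33.4% of all genes. At 3 dpi 2 rose (40% against 17.1%) while Trp53 (log2 −0.77) and Nop53 (−0.29) fell. Under quantile normalization 3 rose and 1 fell at 1 dpi, where 23.2% of all genes rose and 28% fell.

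Markers of other cells moved beside the core genes, and their part in the core genes' changes was not tested; fewer cells of a type and less RNA per cell cannot be told apart. The summed scaled intensity of 11 erythroid markers was 200, 171 and 180 in Ctrl, 401, 330 and 323 at 1 dpi and 64.4, 66.7 and 62.2 at 3 dpi, with Hba-a1 the brightest. Of these 2 rose and 7 fell 2-fold at 1 dpi, and 9 fell at 3 dpi. Of all genes 11.7% rose and 3.08% fell past 2-fold at 1 dpi, and 7.04% and 1.79% at 3 dpi. Without the fold requirement 33.4% of all genes rose and 21.9% fell at 1 dpi, and 17.1% and 14.8% at 3 dpi. For 9 B cell markers, led by Cd79b, the sums were 42.2, 39.5 and 40.7, then 8.21, 7.92 and 8.17, then 8.17, 7.93 and 7.93, and 8 fell at either time. The other marker, Pax5, rose at 1 dpi (log2 0.54, adjusted p = 0.00942), while under quantile normalization 0 of the 9 rose then. For 9 neutrophil markers, led by Mpo, the sums were 1450, 1530 and 1520, then 2530, 2370 and 2330, then 1630, 1450 and 1540, with 1 marker 2-fold higher at 1 dpi. Without the fold requirement 5 rose at 1 dpi, and 1 rose and 1 fell at 3 dpi. Their median of 0.46 at 1 dpi was −0.12 under quantile normalization.

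For 9 macrophage markers, led by Csf1r, the sums were 89.6, 79.8 and 77.2 in Ctrl, 115, 109 and 115 at 1 dpi and 213, 208 and 205 at 3 dpi, with 3 and then 7 of 9 higher 2-fold; without the fold requirement 6 rose and 2 fell at 1 dpi and 9 rose at 3 dpi. For 8 stromal markers, led by Cxcl12, they were 14.6, 13.9 and 14.6, then 70.7, 61.4 and 66.9, then 132, 120 and 129, with 6 and then 5 higher, and Pdgfrb fell at both times (log2 −0.43 and −0.38). For 5 endothelial markers, led by Stab2, they were 2.94, 2.56 and 2.64, then 5.05, 4.58 and 4.72, then 11.3, 9.42 and 9.7, with 2 and then 4 higher, and Tek fell at 1 dpi (log2 −0.93). The sums of these 3 lists were highest at 3 dpi. For 6 T and NK cell markers, led by Nkg7, the sums were 41.7, 43.1 and 41.1, then 58.5, 55.3 and 55.5, then 49.8, 44.9 and 44, where 4 rose at either time and 2 of these at 3 dpi were past 2-fold. For 5 of 6 dendritic markers, led by Siglech, they were 24, 44.9 and 46.1, then 71.6, 67 and 64.7, then 40, 35.5 and 34.7, where past 2-fold 1 rose and 2 fell at 1 dpi and 1 fell at 3 dpi. The 14 megakaryocyte markers summed to 191, 171 and 169, then 186, 172 and 169, then 200, 197 and 195. For 11 proliferation markers, led by Birc5, the sums were 248, 221 and 216, then 198, 203 and 205, then 278, 261 and 256, where 1 rose and 5 fell at 1 dpi and 3 rose at 3 dpi, none past 2-fold, with medians of −0.19 and 0.17.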

How the data were processed

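Labelled RNA from 9 samples was read on Agilent 1-colour arrays with 60-base probes. The deposited files give background-corrected Cy3 intensity per spot, made by the authors with Feature Extraction 10.7.1.1, and a table by the authors gives quantile-normalized log2 intensity for each gene. The methods describe another array type; the files were taken as they are. Repeated spots of a probe were averaged, intensities were put on a log2 scale and each array's 75th percentile over probes was subtracted. Of 56605 probes, 44300 were kept that were well above background on all 3 arrays of a group; 20 without a value on an array were left out. Each gene took its brightest kept probe. RefSeq accessions named 32994 probes. Signal over background limits what dim probes can show.

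R 4.3.3 with limma 3.58.1 fitted 3 group means over all 29410 genes, in 3 comparisons, with Benjamini-Hochberg adjustment over all genes; Python 3.11.15 with matplotlib 3.10.9 drew the figures. A gene rose or fell at an adjusted p under 0.05, and 2-fold is stated where required. The steps were tested on simulated data. Genes named are, per comparison, the 4 highest and 4 lowest core genes, all paralogs, members with known roles, ribosomal proteins outside the rule, Rps19bp1, and the 3 called genes with the largest changes of each other list; some of these are counted and not named. Rpl30, Rps7, Rpl37rt, Rpl35, Trp53, Nop53 and genes whose probes disagree were named after their values were seen, as were Rrn3, Gnl3, Nmd3, Eef1a1 and Eif4g2. Members and lists were chosen with earlier results of these data known.

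Alternatives were quantile normalization, alone and after normexp background correction with an offset of 50, the array median as reference, the authors' table, no filter, a filter on all 9 arrays, the mean of kept probes, every probe, slide or replicate as a block, the methods' t-test, the median of all genes as reference, and leaving out each replicate. The 75th percentile over spots and no scaling were chosen after seeing the data. Replicate numbers were not taken as pairs, since only 4 of 9 arrays correlated best with arrays of their own number.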

Additional observations from a re-analysis of the deposited data

Results flagged for a closer look

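In 10 member genes every 1 dpi array was above all Ctrl arrays and every 3 dpi array below them, which is 11.5% of 87 members against 2.33% of all genes tested (684 of 29410), among these Rpl30, Rps7, Rps14 and Rps27. They are listed because the 2 times lay on opposite sides of Ctrl, and the changes did not all pass the test, as Rps7 was at 0.02 at 1 dpi (adjusted p = 0.745) and Rps14 at −0.1 at 3 dpi (adjusted p = 0.241); the difference was not tested as such, and it depends on the scaling, since under quantile normalization Rps14, for one, was at −0.4 at 1 dpi. Rpl10l is listed because its change at 1 dpi differed from that at 3 dpi by the test of the 2 times, with a log2 fold change of −1.07 from 1 to 3 dpi (adjusted p = 0.00662), 2.1-fold lower; with no scaling it was −0.01.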

How the results depend on the processing

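Directions and calls at 1 dpi depended on the scaling, and the cause was not tested. The 2 core genes 2-fold higher at 1 dpi became 0 under quantile normalization, with array medians, after normexp with quantile normalization, with no scaling, with slide as a block or relative to the median of all genes, 1 in the authors' table or with the mean of kept probes, 8 over every probe, and 58 with no fold requirement. The 0 that were 2-fold lower became 1 under quantile normalization, 4 in the authors' table, 5 with no scaling and 3 over every probe. The 58 that rose (75.3%) became 6 under quantile normalization, 22 with array medians, 7 after normexp, 5 in the authors' table, 0 with no scaling, 39 relative to the median of all genes and 104 over every probe (60.1%). The 0 that fell became 36, 2, 41, 35, 42 and 5 in that order, 12 over every probe and 1 with the mean of kept probes. After normexp 9.09% rose and 53.2% fell, against 24% and 28.5% of all genes. Relative to the median of all genes it was 50.6% and 6.49%, against 20.5% and 32.8%. Of all kept probes 33.5% rose and 21.8% fell. The large subunit's 0.26 relative to all genes became −0.17 under quantile normalization, −0.16 after normexp, −0.21 in the authors' table, 0.12 with no filter, 0.34 with the filter on all 9 arrays, 0.03 with the mean of kept probes and 0.1 over every probe. The small subunit's 0.18 became −0.18, −0.19 and −0.22 in the first 3 of these, 0.04 with no filter and 0.28 with slide as a block. Leaving out 1 array gave 0 to 6 genes 2-fold higher, 53 to 65 that rose, 0.2 to 0.28 for the large and 0.11 to 0.35 for the small subunit.

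At 3 dpi no alternative gave a core gene that rose. The 0 that were 2-fold lower became 2 in the authors' table and over every probe, and 3 with no fold requirement. The 3 that fell (3.9%, against 14.8% of all genes) became 7 under quantile normalization (9.09% against 18.5%) and 13 after normexp (16.9% against 19.2%). They became 17 in the authors' table (22.1% against 14.2%) and 9 with the mean of kept probes (11.7% against 15.4%). By the methods' t-test without adjustment 10 fell (13% against 17%), and relative to the median of all genes 18 (23.4% against 21.8%). Over every probe 23 fell (13.3% against 16.6% of all probes). The count was 0 with array medians, with no scaling or with replicate as a block. It was 1 with no filter, and 1 to 4 with 1 array left out. The large subunit's −0.13 became −0.06 under quantile normalization, −0.05 after normexp and −0.06 with slide as a block. With 1 array left out it was −0.15 to −0.03, and the small subunit −0.2 to −0.04.

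Between 1 and 3 dpi the 0 that were 2-fold higher became 2 with no scaling. The 0 that were 2-fold lower became 2 in the authors' table, 1 with the mean of kept probes, 2 over every probe and 66 with no fold requirement. The 0 that rose became 18 under quantile normalization (23.4% against 24.9% of all genes), 21 after normexp (27.3% against 25.6%) and 13 in the authors' table (16.9% against 19.3%). They became 52 with no scaling (67.5% against 67%) and 2 over every probe (1.16% against 19.8% of all probes). The 66 that fell (85.7% against 23.3% of all genes) became 2, 3, 7, 0 and 123 in the same order. These 123 are 71.1% of the core probes, against 25.8% of all probes. With array medians 30 fell (39% against 12.7%), and with 1 array left out 55 to 72 fell. The large subunit's −0.37 became 0.07 under quantile normalization and after normexp, 0.08 in the authors' table, −0.28 with no filter, −0.24 with the mean of kept probes and −0.26 over every probe. The small subunit's −0.43 became 0.09 in the former pair, 0.04 in the authors' table and −0.34 with the mean of kept probes.

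Single genes also turned, in log2 fold change. At 1 dpi the authors' table gave Rps24 −1.98, Rps2 3.56, Rpl11 −0.76, Rps14 −0.41, Rps27 −0.33 and Siglech −2.08, and the mean of kept probes Rps24 −0.23, Rps2 1.41 and Siglech −0.17; the values of Rps2 in these 2 settings rest on a dim probe that was well above background on 1 of 3 Ctrl arrays, so that their size is not exact. Quantile normalization gave Rpl11 −0.19, Rps14 −0.4 and Rps27 −0.33, and after normexp these were −0.16, −0.37 and −0.32. With no scaling every log2 fold change at 1 dpi was lower by a like amount. This common shift turned Rpl7a to −1, Rps4l to −0.48, Rps14 to −0.72, Rps27 to −0.7, C1qa to −0.65, Klrb1c to −0.48 and Stab2 to −0.51. At 3 dpi the authors' table gave Rps24 −2.13. Between the times it gave Rps2 −3.74, Rpl11 0.3, Rps14 0.28 and Siglech 1.46, and the mean of kept probes Rps2 −1.34 and Ms4a1 −0.52. Quantile normalization gave Rpl11 0.19 and Rps14 0.27, and after normexp Rplp0 was 0.14, Rpl11 0.18, Rps14 0.26 and Rps27a 0.15. Between the times every log2 fold change was higher by a like amount with no scaling. This common shift turned Rps27l to 0.72, Rplp0 to 0.62, Rpl11 to 0.6, Rpl22 to 0.82, Rps14 to 0.67, Rps27 to 0.6, Rps27a to 0.48, Sesn2 to 0.02, Ppp1r15a to 0.01 and Flt3 to 0.59. Of 207 values of named genes, 145 kept direction and call under quantile normalization, 153 with array medians, 108 with no scaling, 202 with the 75th percentile over spots, 204 with no filter, 177 with the mean of kept probes, and 198 with slide as a block. Signal over background limits what dim probes, such as those of Rpl37 and Rpl10l, can show.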

Other observations

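Ribosomal proteins of mitochondria are a separate family, chosen for comparison after the data were examined. Of 78 such genes, 14 (17.9%) rose and 18 (23.1%) fell at 1 dpi under the 75th percentile, against 33.4% and 21.9% of all genes, with a median log2 fold change of −0.02, or −0.25 relative to all genes. At 3 dpi 17 (21.8%) rose, against 17.1% of all, with a median of 0.15. Between the times 35 (44.9%) rose and 1 (1.28%) fell, against 21% and 23.3%, with a median of 0.18. This family was looked at under the 75th percentile alone, and not beside other genes of like brightness. Whether its values hold under other scalings was not tested.

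Among names with -ps, which mark pseudogenes and were left out by the rule, probes gave log2 fold changes at 1 dpi of 1.2 for Rpl17-ps8, 0.98 for Rpl34-ps1, 0.27 and 0.49 for Rpl31-ps12 and −0.22 for Rps15a-ps6. At 3 dpi they were 0.32, 0.37, −0.08 and 0.02, and −0.33. Whether their probes also read the parent genes was not tested.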
